A study of Arabidopsis thaliana with 33 samples.

Results

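The 30 genes described here encode nuclear subunits of the photosynthetic light reactions in *Arabidopsis thaliana*. They were taken as listed loci from the 27826 loci on the arrays, by name and not by measured value, and all 30 were found there. By role, 10 belong to photosystem II (PSII), 12 to photosystem I (PSI), 6 to electron transport between and after the photosystems and 2 to the chloroplast ATP synthase. All 30 loci also carried a photosystem, plastocyanin, ferredoxin, reductase, Rieske or ATP synthase symbol in the RefSeq gene table, apart from AT1G20340, which is listed there as DRT112 and is the plastocyanin gene called PETE2 here.

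Complete rosettes were taken from Col-0 and from 2 other natural accessions, Ga-0 and Ts-1. All plants were raised in low light (LL) at 100 μmol m-2 s-1, and for some of them high light (HL) at 550 μmol m-2 s-1 began when the lights came on at day 25 after sowing. HL and LL rosettes of the 3 accessions were sampled 1 hr into that photoperiod, HL and LL rosettes of Col-0 also at 3.5 and 25 hr, and LL rosettes of Col-0 also at -23 hr, on day 24. The 25 hr rosettes were taken on day 26, after a night, 1 hr after the lights came on. They thus share their hour of the day with the 1 hr groups but not with the 3.5 hr groups. This gives 11 groups of 3 arrays, each array being a biological replicate of pooled rosettes, so that p measures the spread between such pools. In whole rosettes, fewer cells of a type and less RNA per cell cannot be told apart.

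In the light reactions, PSII oxidizes water and passes electrons through the cytochrome b6f complex to plastocyanin, PSI lifts them to ferredoxin, and ferredoxin-NADP+ reductase makes NADPH. The proton gradient built up on the way drives the ATP synthase. The reaction centre proteins are made from plastid genes, whereas the extrinsic PSII proteins and most peripheral PSI subunits are nuclear. Several of these nuclear subunits are encoded by a pair of similar genes in Arabidopsis.

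Signal is given for each array as a percentage of the mean of the 3 Col-0 LL arrays at 1 hr, separately for each gene, because the deposited values allow no comparison of level between genes. Changes are log2 fold-changes, HL minus LL unless stated otherwise, with the standard error (SE). A gene passed at an adjusted p below 0.05 (limma with Benjamini-Hochberg adjustment over all loci), and was called responsive if it also changed more than 1.4-fold, which is 0.485 on the log2 scale. The largest change of any of the 30 genes in the comparisons made here was -0.69, and since the deposited values are known only up to a power of 10, the smaller change was taken throughout (the next power of 10 would turn -0.69 into 2.63).

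After 1 hr of HL, none of the 30 genes passed in Col-0, Ga-0 or Ts-1. In Col-0, 27 genes lay below 0, with a median of -0.10, whereas 56.7% of all loci lay below 0, with a median of -0.02. Without replicate 1 of every group, 21 genes lay below 0, with a median of -0.05. The 30 genes tended to shift together on single arrays, so such counts are not of independent genes. On Col-0 HL replicate 1 at 1 hr, 5 of the 30 lay above their group mean. At 3.5 hr in Col-0, 2 did so on HL replicate 3 and 27 on LL replicate 2. Of all loci, 3.28% passed as lower and 3.71% as higher in Col-0 at 1 hr. Only PETE1 (-0.20 ± 0.09) and PSAN (-0.17 ± 0.08) had an unadjusted p below 0.05 in limma. The share of all loci at that limit was not computed, here or below. In 5 genes all HL arrays lay below all LL arrays, as did 12.2% of all loci.

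After 3.5 hr, 9 of the 30 genes were lower in HL and none were higher (0 of 30), beside 10.1% of all loci lower and 11.5% higher. Only PSAD2 and PETE1 were called responsive, as were 3.77% of all loci in the lower direction. In total 24 genes lay below 0, with a median of -0.13, against 52.4% of all loci and a median of -0.01. The HL and LL arrays did not overlap in 13 genes, all lower in HL, compared with 17.6% of all loci.

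At 25 hr, on day 26, 7 genes were lower and none were higher (0 of 30), beside 8.67% and 8.29% of all loci. No gene changed more than 1.4-fold, beside 2.47% of all loci called lower. Without replicate 2 of HL or of LL at 25 hr, 3 genes were lower. The values of 27 genes lay below 0, 20 of which had not passed, with a median over the 30 of -0.19, and in 20 genes all HL arrays lay below all LL arrays. The corresponding values over all loci were 54.0% below 0, a median of -0.01 and 17.9%. In 1 gene, FNR2, all HL arrays lay above all LL arrays, as did 15.6% of all loci, at a change of only 0.06 (95% interval -0.10 to 0.23).

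**Figure D1:**
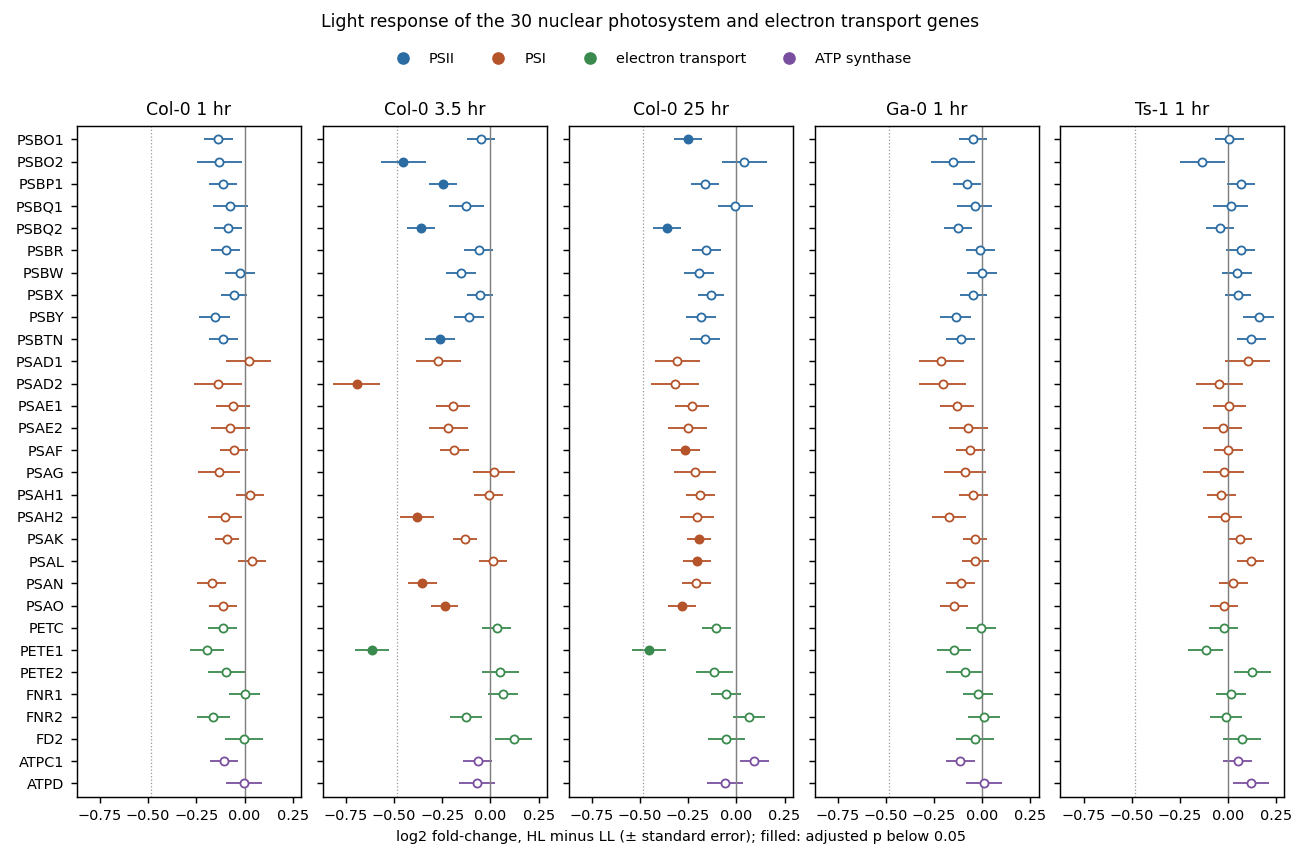
Log2 fold-change, HL minus LL, with its standard error for each of the 30 genes (rows, coloured by role) in the 5 light comparisons (panels), with filled points at an adjusted p below 0.05 and dotted lines at a 1.4-fold decrease. Filled points are found only at 3.5 hr (9 genes) and 25 hr (7 genes) in Col-0, all left of 0.

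Taking 3.5 and 25 hr together, 13 genes passed at either time, 3 of them at both (PETE1, PSAO and PSBQ2), 6 at 3.5 hr alone and 4 at 25 hr alone. Of all loci, 14.8% passed as lower at either time, 3.9% at both, 6.18% at 3.5 hr alone and 4.77% at 25 hr alone. In all 5 light comparisons, Ga-0 and Ts-1 included, PETE1, PSAD2, PSAE2, PSAH2, PSAO and PSBQ2 lay below 0 (6 genes), as did 10.8% of all loci. Passing at a single time does not show that the response differed between times. That difference was tested by itself, and it passed for PSAD2 (-0.56 ± 0.17, adjusted p = 0.036) and PETE1 (-0.42 ± 0.13, adjusted p = 0.028), for 3.5 minus 1 hr, where 4.5% of all loci passed as lower. PSAD2 lost this call without 8 of the 12 arrays and in the fit of the compared groups alone, and PETE1 without 7 of the 12. No gene passed for 25 minus 1 hr or 25 minus 3.5 hr, beside 5.04% and 9.73% of all loci in either direction, with 3 genes each at an unadjusted p below 0.05.

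Among the PSII genes, both of the largest decreases at 3.5 hr were found for extrinsic proteins of the water-oxidizing complex. PSBO2 (AT3G50820) encodes a copy of the manganese-stabilizing protein. Its signal was 76.9, 78.3 and 74.9% in the 3 HL arrays at 3.5 hr, compared with 96.8, 112 and 106% in LL. The groups did not overlap, and the change of -0.45 ± 0.12 had an adjusted p of 0.004 in the limma fit. At 25 hr PSBO2 had 95.1, 88.6 and 101% in HL, against 102, 93.9 and 81.1% in LL, so that the groups overlapped around a change of 0.04 ± 0.12.

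PSBQ2 (AT4G05180), a copy of another extrinsic protein, was lower at both later times. It was singled out, as were the PSI genes PSAN, PSAH2 and PSAO below, after its values were seen. At 3.5 hr it had 88.0, 83.3 and 78.9% in HL, against 100, 118 and 103% in LL (-0.36 ± 0.07, adjusted p = 0.00038). At 25 hr the values were 76.2, 77.8 and 85.6% in HL and 102, 106 and 98.9% in LL, again without overlap (-0.36 ± 0.07, adjusted p = 0.00058).

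Of the remaining PSII genes, PSBP1, the third type of extrinsic protein, was lower at 3.5 hr by -0.25 ± 0.07 (adjusted p = 0.013), and the small nuclear T subunit PSBTN by -0.26 ± 0.08 (adjusted p = 0.012). PSBO1, the other manganese-stabilizing gene, was lower at 25 hr by -0.25 ± 0.07 (adjusted p = 0.016). The calls of PSBP1 and PSBTN were lost without HL replicate 3 or LL replicate 1 at 3.5 hr (adjusted p up to 0.067 for PSBP1), and that of PSBO1 without replicate 2 of HL or of LL at 25 hr. PSBQ1, PSBR, PSBW, PSBX and PSBY passed in no light comparison. Thus 4 of 10 PSII genes passed as lower at 3.5 hr and 2 of 10 at 25 hr, beside 10.1% and 8.67% of all loci. The medians of the 10 PSII genes were -0.14 and -0.16.

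Of the PSI genes 4 of 12 were lower at 25 hr, beside 8.67% of all loci. All 12 values lay between -0.32 and -0.19, 8 of them not passing. In 11 genes all HL arrays lay below all LL arrays, beside 17.9% of all loci. At 3.5 hr 4 of 12 were lower as well, beside 10.1% of all loci, and the values ran from -0.69 to 0.02. PSAD2 (AT1G03130) encodes a copy of the stromal subunit at which ferredoxin docks, and its change at 3.5 hr was the largest among the 30 genes. PSAD2 had 89.5, 85.9 and 62.4% in HL at 3.5 hr, against 128, 142 and 112% in LL, a change of -0.69 ± 0.12 (adjusted p = 6.4e-05). HL replicate 3 was the lowest of these arrays, yet all 3 HL arrays lay below the LL arrays. In the other Col-0 comparisons PSAD2 was not called, although its arrays were likewise separated: it had 82.3, 97.7 and 93.6% in HL and 102, 100 and 98.4% in LL at 1 hr, and 83.4, 81.4 and 73.2% in HL and 111, 99.9 and 86.9% in LL at 25 hr (-0.32 ± 0.12, adjusted p = 0.076).

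PSAN (AT5G64040), a lumenal subunit on the plastocyanin side of PSI, had 76.5, 76.6 and 69.3% in HL at 3.5 hr, compared with 90.8, 95.3 and 97.8% in LL (-0.35 ± 0.08, adjusted p = 0.00056). PSAH2 (AT1G52230) belongs to the side of PSI where light-harvesting complex II can dock, and had 80.4, 83.2 and 82.3% in HL against 111, 108 and 101% in LL at that time (-0.38 ± 0.09, adjusted p = 0.0015). PSAO (AT1G08380), on the same side, was lower at 3.5 hr by -0.24 ± 0.07 (adjusted p = 0.015) and at 25 hr by -0.28 ± 0.07 (adjusted p = 0.0049). Its HL arrays at 25 hr had 80.5, 76.4 and 76.3%, below the 98.4, 93.6 and 91.8% of LL. The PSAO call at 3.5 hr, but not that at 25 hr, was lost without HL replicate 3 or LL replicate 1.

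A further 3 PSI genes passed at 25 hr only. PSAF, which binds plastocyanin, was lower by -0.27 ± 0.07 (adjusted p = 0.011), PSAK, at the edge next to the antenna, by -0.19 ± 0.06 (adjusted p = 0.032), and PSAL, which neighbours PSAH and PSAO, by -0.21 ± 0.07 (adjusted p = 0.045). These calls were narrow. PSAF lost its call without replicate 2 of HL or of LL, PSAK without HL replicate 1 or 2 or LL replicate 2 or 3, and PSAL without any 1 of the 6 arrays. With each array centred on its own median, PSAK and PSAL did not pass. PSAD1, PSAE1, PSAE2, PSAG and PSAH1 passed in no light comparison.

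In electron transport 1 of the 6 genes passed, at 3.5 and at 25 hr, beside 10.1% and 8.67% of all loci passing as lower. PETE1 (AT1G76100), a copy of plastocyanin, had 84.7, 79.0 and 73.9% in HL at 3.5 hr, compared with 113, 134 and 117% in LL (-0.62 ± 0.09, adjusted p = 3.1e-06). At 25 hr PETE1 had 72.0, 76.9 and 75.3% in HL and 103, 103 and 100% in LL (-0.45 ± 0.09, adjusted p = 0.00037). At 1 hr the HL arrays, at 82.4, 92.6 and 87.2%, already lay below the LL arrays, at 102, 99.1 and 98.8%, but the change did not pass (-0.20 ± 0.09, adjusted p = 0.23). PETE1 was thus separated between HL and LL at each of the 3 times.

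PETE2, PETC (the Rieske protein of the cytochrome b6f complex), FNR1, FNR2 (both ferredoxin-NADP+ reductase) and FD2 (the main leaf ferredoxin) passed in no light comparison. PETC had 95.6, 91.3 and 90.6% in HL and 104, 100 and 96.5% in LL at 1 hr, and 96.0, 91.0 and 87.9% in HL and 96.4, 97.9 and 101% in LL at 25 hr, so that its arrays did not overlap at these times. PETC was picked for this after its values were seen. The changes of these 5 genes at 3.5 hr ran from -0.13 for FNR2 (95% interval -0.30 to 0.04) to 0.12 for FD2 (-0.08 to 0.32). At 25 hr they ran from -0.11 for PETE2 (-0.31 to 0.08) to 0.06 for FNR2.

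Neither ATP synthase gene passed in any light comparison. ATPD (AT4G09650), the delta subunit, had 95.5, 101 and 103% in HL and 97.5, 95.3 and 108% in LL at 1 hr, 106, 106 and 95.4% in HL and 109, 115 and 99.3% in LL at 3.5 hr, and 103, 95.8 and 93.5% in HL and 113, 101 and 91.3% in LL at 25 hr. The arrays overlapped at each time, and the 95% intervals ran from -0.26 to 0.12 at 3.5 hr and from -0.25 to 0.13 at 25 hr. ATPC1, the gamma subunit, changed by -0.07 (-0.22 to 0.09) and 0.09 (-0.06 to 0.25) at these times. A decrease of the size found in PETE1 thus lay outside all of these intervals. Smaller decreases that passed were not all outside them. At 25 hr, -0.19 for PSAK and -0.21 for PSAL lay inside the ATPD interval, and -0.28 for PSAO outside.

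**Figure D2:**
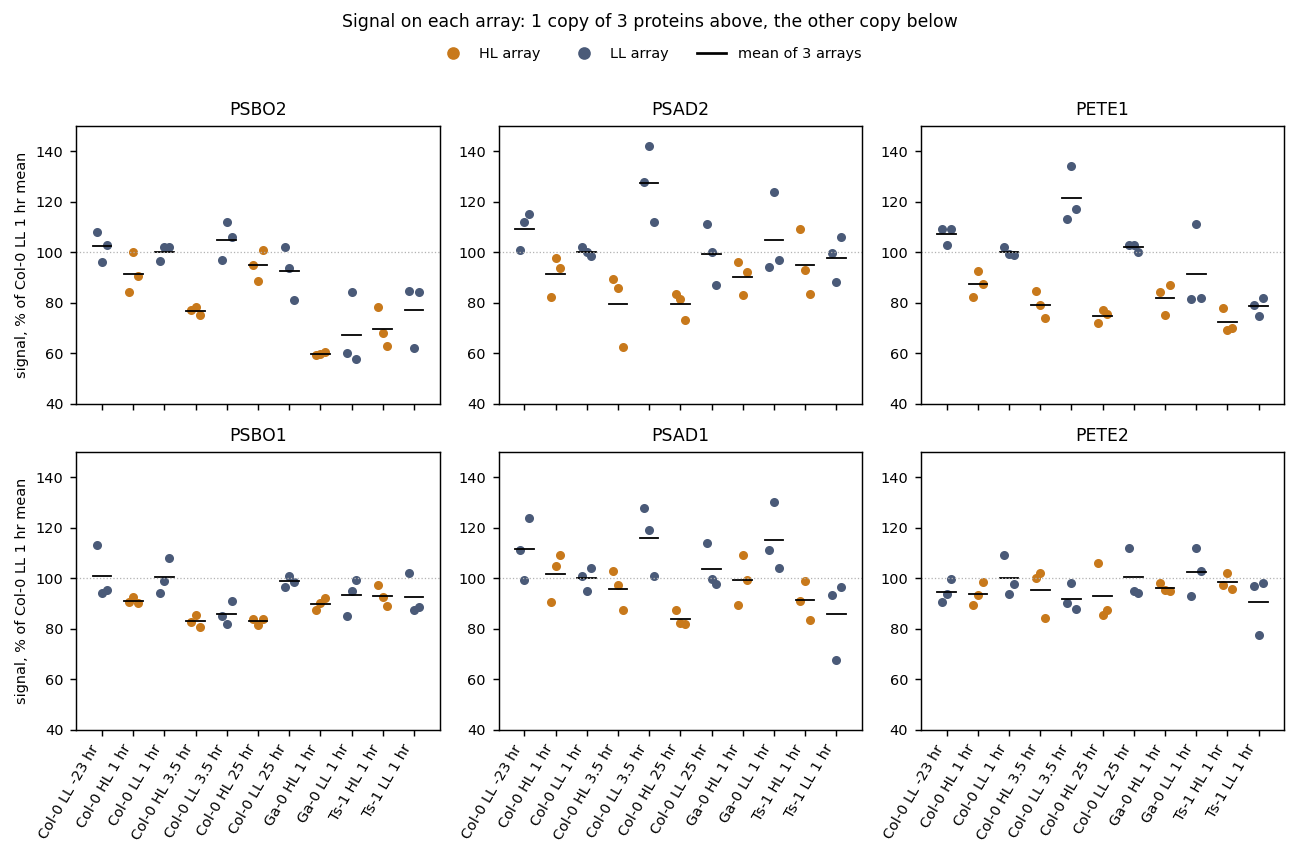
Signal on each of the 33 arrays (points, orange for HL and blue for LL, black bars for the mean of 3 arrays), as a percentage of the Col-0 LL mean at 1 hr, for PSBO2, PSAD2 and PETE1 above and for the other copy of each below. At 3.5 hr the HL arrays of the upper copies reach at most 89.5% and the LL arrays lie at 96.8% or above, while PETE2 overlaps, and PSBO2 lies at 84.5% or below in all Ga-0 and Ts-1 arrays.

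Because the genes come in pairs, the log2 difference between both copies was computed within each array and tested in the same way. Arrays compare paralogs only as far as their probes tell similar sequences apart, and the sharing of probes between copies was not tested. At 1 hr no pair of 7 differed in its response in any accession. At 3.5 hr 5 of 7 pairs did. PETE1 changed more than PETE2 by -0.67 ± 0.10 (adjusted p = 3.4e-06), PSAD2 more than PSAD1 (first minus second copy 0.42 ± 0.11, adjusted p = 0.0045), PSBO2 more than PSBO1 (0.40 ± 0.11, adjusted p = 0.0075), PSAH2 more than PSAH1 (0.37 ± 0.09, adjusted p = 0.002) and PSBQ2 more than PSBQ1 (0.23 ± 0.08, adjusted p = 0.038).

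Single arrays mattered for some of these pairs. The difference for PSAD was lost without HL replicate 3 (adjusted p = 0.054), that for PSBO without LL replicate 2 (adjusted p = 0.069), and that for PSBQ without any of the 6 arrays other than LL replicate 3. The PETE and PSAH differences passed without each array in turn.

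At 25 hr 2 of the 7 pairs differed, PSBQ (0.35 ± 0.08, adjusted p = 0.0022) and PETE (-0.34 ± 0.10, adjusted p = 0.013), and the PETE difference did not pass without HL replicate 1 or LL replicate 2 or 3. Both PSAD copies were at nearly the same change by then, -0.31 for PSAD1 and -0.32 for PSAD2, and their difference was 0.01 ± 0.11. PSBO1 minus PSBO2 did not pass at 25 hr (-0.29 ± 0.11, adjusted p = 0.071), but the difference between the PSBO copies changed between 25 and 3.5 hr, by -0.70 ± 0.16 (adjusted p = 0.0035). The PETE difference at 3.5 hr also exceeded that at 1 hr, by -0.57 ± 0.14 (adjusted p = 0.0059). Both of these tests passed without each of the 12 arrays in turn. From 1 to 3.5 hr, PETE1 minus PETE2 was higher in LL by 0.40 ± 0.10 (adjusted p = 0.0025). In HL over the same hours it did not pass (-0.17 ± 0.10, adjusted p = 0.23). How these differences within a light held without single arrays was not examined. PSAE1 and PSAE2 differed by 0.03 ± 0.11 at 3.5 hr and 0.02 ± 0.11 at 25 hr, and the FNR pair did not pass (0.19 ± 0.07, adjusted p = 0.059 at 3.5 hr).

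**Figure D3:**
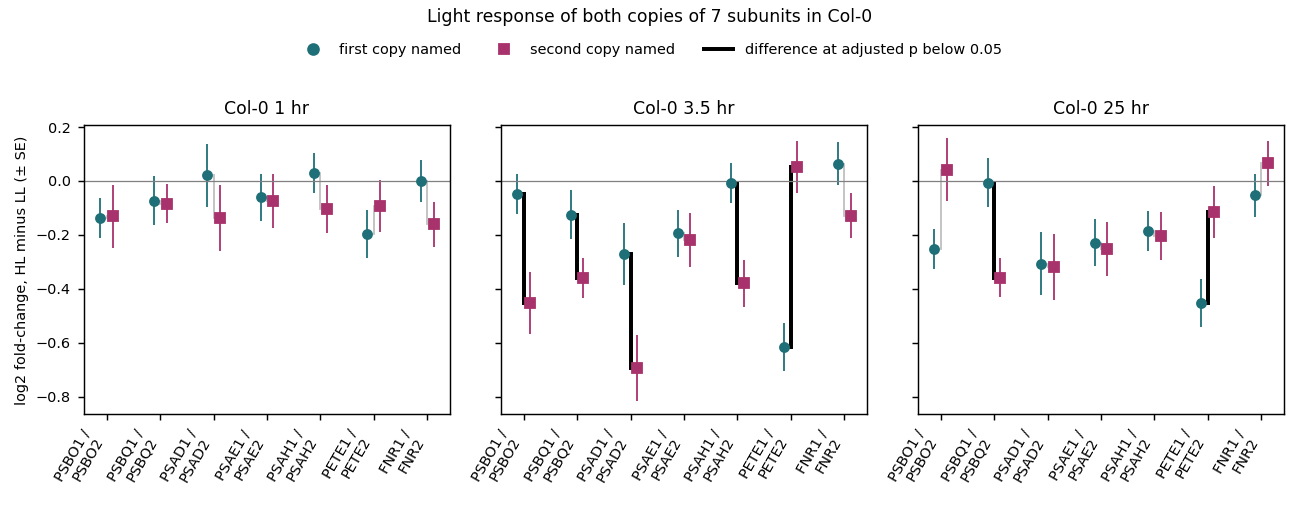
Log2 fold-change, HL minus LL, with its SE for the first (circles) and second copy (squares) of 7 subunits in Col-0 at 1, 3.5 and 25 hr, with black lines where the difference between copies passed at an adjusted p below 0.05. Black lines join 5 pairs at 3.5 hr and 2 pairs at 25 hr.

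The LL groups themselves differed within the day. From 1 to 3.5 hr in LL, PSAD2 (0.34 ± 0.12, adjusted p = 0.046) and PETE1 (0.28 ± 0.09, adjusted p = 0.023) were higher and PSBO1 was lower (-0.22 ± 0.07, adjusted p = 0.031), with 11.1% of all loci higher and 9.92% lower. PSAD2 had 128, 142 and 112% at 3.5 hr, against 102, 100 and 98.4% at 1 hr. In HL over the same hours, PSAD2 (-0.22 ± 0.12, adjusted p = 0.22) and PETE1 (-0.14 ± 0.09, adjusted p = 0.27) did not pass. The difference between HL and LL in both genes at 3.5 hr therefore held a higher LL level as well as a lower HL level than at 1 hr, of which only the LL difference passed.

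These LL calls were sensitive to single arrays. PSAD2 lost its call without any LL replicate at 1 hr or LL replicate 1 or 2 at 3.5 hr, and with median centring or with values placed by their overall centre. PETE1 lost its call without LL replicate 2 or 3 at 1 hr or LL replicate 2 at 3.5 hr, and PSBO1 without LL replicate 2 or 3 at 1 hr or LL replicate 1 or 2 at 3.5 hr. Between days at the same hour in LL, 0 of the 30 genes passed for 25 minus 1 hr (0.0539% of all loci), 1 minus -23 hr (0.37%) or 25 minus -23 hr (1.42%), with 0, 1 and 1 genes at an unadjusted p below 0.05 in limma.

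In HL from 1 to 25 hr, at the same hour of the day, 4 genes were lower, beside 6.99% of all loci. They were PSAF (-0.27 ± 0.07, adjusted p = 0.012), PSAO (-0.25 ± 0.07, adjusted p = 0.014), PSBQ2 (-0.24 ± 0.07, adjusted p = 0.022) and PSAH1 (-0.22 ± 0.07, adjusted p = 0.037). All 4 lost their calls without HL replicate 2 at 25 hr. PSAO and PSBQ2 also lost theirs without HL replicate 2 or 3 at 1 hr, PSAH1 without any HL replicate at 1 hr, PSAO and PSAH1 without HL replicate 3 at 25 hr, and PSBQ2 without HL replicate 1 at 25 hr.

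PSAN alone passed in HL between 1 and 3.5 hr, lower by -0.26 ± 0.08 (adjusted p = 0.0068), beside 13.6% of all loci. From 3.5 to 25 hr in HL it was higher by 0.22 ± 0.08 (adjusted p = 0.032), whereas PSAO was lower by -0.21 ± 0.07 (adjusted p = 0.03), beside 11.3% of loci higher and 11.9% lower. These times also differ in hour of the day. The PSAN decrease lost its call without HL replicate 3 at 3.5 hr, and its increase without that array or HL replicate 2 or 3 at 25 hr. The PSAO decrease lost its call without HL replicate 1 or 2 at 3.5 hr or replicate 2 or 3 at 25 hr.

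Ga-0 and Ts-1 were compared with LL at 1 hr only. None of the 30 genes passed in either accession (0 of 30, with 0 at an unadjusted p below 0.05 in limma), beside 2.86% of loci lower and 2.71% higher in Ga-0 and 2.92% lower and 3.51% higher in Ts-1. In Ga-0, 28 genes lay below 0 with a median of -0.08, beside 50.7% of all loci and a median of -0.002. In Ts-1 11 genes did, with a median of 0.01, beside 51.6% of all loci and a median of -0.005. Single LL arrays moved with these counts. In Ga-0 LL replicate 2 all 30 genes lay above their group mean, with a median of 110% against 93.8 and 97.7% in replicates 1 and 3. In Ts-1 LL replicate 2 none of the 30 did, with a median of 87.5% against 101% in both other arrays.

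Without Ga-0 LL replicate 2 the median response in Ga-0 was -0.01 and 17 genes lay below 0. Without Ts-1 LL replicate 2 the median in Ts-1 was -0.04 and 22 genes lay below 0. The difference in response between accessions passed for no gene (0 of 30 for each pair of accessions, beside 0.212% of all loci for Col-0 minus Ga-0, 0.633% for Col-0 minus Ts-1 and 0.309% for Ga-0 minus Ts-1). At an unadjusted p below 0.05 in limma, 0, 2 and 2 genes differed, which were PSBY and PSBTN in both comparisons with Ts-1.

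**Figure D4:**
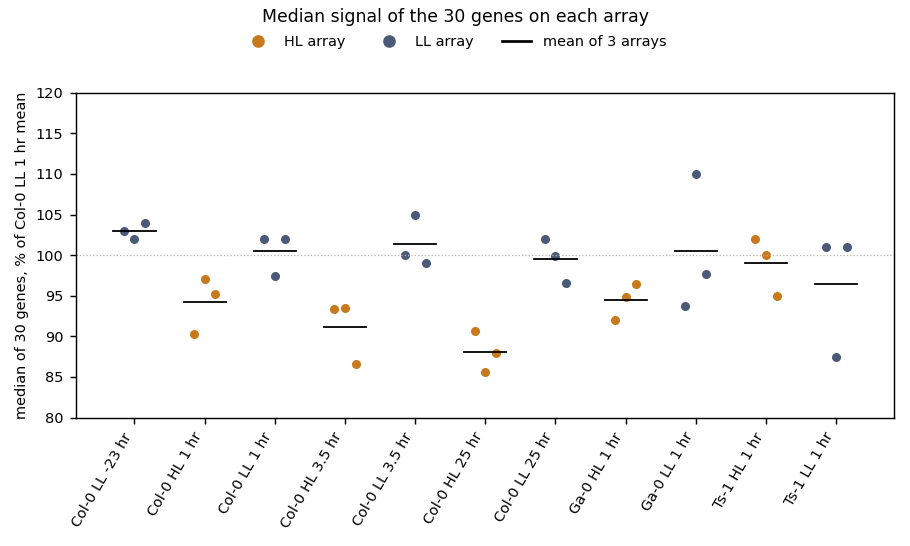
Median signal of the 30 genes on each array (points, orange for HL and blue for LL, black bars for the mean of 3 arrays), as a percentage of the Col-0 LL mean at 1 hr. The Col-0 HL arrays lie between 85.6 and 97.1%, and replicate 2 lies apart at 110% in Ga-0 LL and at 87.5% in Ts-1 LL.

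Between accessions in the same light, PSBO2 stood out. In Ga-0 it had 59.1, 59.8 and 60.4% in HL and 59.9, 84.3 and 57.8% in LL, and in Ts-1 78.4, 67.8 and 62.9% in HL and 84.5, 62.0 and 84.4% in LL. In Col-0 at the same time it had 84.1, 100 and 90.5% in HL and 96.3, 102 and 102% in LL. PSBO2 was called lower in Ga-0 than in Col-0 in both lights, by -0.61 ± 0.12 in HL (adjusted p = 0.00022) and -0.59 ± 0.12 in LL (adjusted p = 0.00031), and both calls held without each array in turn. Of all loci, 7.64% in HL and 8.05% in LL passed as lower in Ga-0, counted without the 1.4-fold limit.

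PSBO2 was also lower in Ts-1 than in Col-0, by -0.40 ± 0.12 in HL (adjusted p = 0.014) and -0.39 ± 0.12 in LL (adjusted p = 0.013), beside 8.3% and 9.34% of all loci. The call in HL was lost without Col-0 HL replicate 2 or Ts-1 HL replicate 3, and that in LL without Ts-1 LL replicate 2. Both accessions were compared with the same Col-0 arrays. The probes are designed on Col-0, and how well they match the PSBO2 sequences of Ga-0 and Ts-1 was not tested. The copies differed here too: PSBO1 minus PSBO2 was higher in Ga-0 than in Col-0 by 0.59 ± 0.11 in HL (adjusted p = 0.00019) and by 0.49 ± 0.11 in LL (adjusted p = 0.0018). The PSBO difference was also higher in Ts-1 HL than in Col-0 HL (0.42 ± 0.11, adjusted p = 0.006). In Ts-1 HL, PETE1 minus PETE2 (-0.34 ± 0.10, adjusted p = 0.012) and FNR1 minus FNR2 (-0.22 ± 0.07, adjusted p = 0.029) were lower than in Col-0. In LL, Ga-0 exceeded Ts-1 in PSAD1 minus PSAD2 (0.34 ± 0.11, adjusted p = 0.032) and lay below it in PSAH1 minus PSAH2 (-0.27 ± 0.09, adjusted p = 0.034). How these differences held without single arrays was not examined.

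PETE1 was lower in Ts-1 than in Col-0. It had 77.8, 69.3 and 70.0% in Ts-1 HL against 82.4, 92.6 and 87.2% in Col-0 HL (-0.27 ± 0.09, adjusted p = 0.029), and 78.9, 74.7 and 81.9% in Ts-1 LL against 102, 99.1 and 98.8% in Col-0 LL (-0.35 ± 0.09, adjusted p = 0.0039). The HL call, but not the LL call, was lost without replicate 2 or 3 of either HL group. As for PSBO2, how well the probes match the Ts-1 sequence was not tested.

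Genes higher in the other accessions were few. In HL the small PSII subunits PSBX (0.25 ± 0.07, adjusted p = 0.0089) and PSBY (0.26 ± 0.08, adjusted p = 0.022) were higher in Ts-1 than in Col-0, beside 10.1% of all loci, and PSBX was higher in Ga-0 (0.20 ± 0.07, adjusted p = 0.049), beside 9.03%. PSBX in Ts-1 lost its call without Col-0 HL replicate 3, PSBY without Col-0 HL replicate 1 or 3 or Ts-1 HL replicate 1 or 2, and PSBX in Ga-0 without any Ga-0 HL array or Col-0 HL replicate 1 or 3. PSBX in Ga-0 was also lost in 6 of 7 other settings, among them the replicate block, median centring and robust empirical Bayes. PSAD1 was higher in Ga-0 LL than in Ts-1 LL (0.43 ± 0.12, adjusted p = 0.009, beside 7.32% of all loci), with 111, 130 and 104% against 93.5, 67.6 and 96.4%. The outermost values belonged to the replicate 2 arrays described above, and without either of them PSAD1 did not pass.

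Genes of the same pathway outside the 30 were counted in the same way. Of 21 light-harvesting antenna genes, 10 were lower and 3 higher in Col-0 at 3.5 hr, with a median of -0.21, and 9 were lower and 1 higher at 25 hr, with a median of -0.24. Of all loci, 10.1% passed as lower and 11.5% as higher at 3.5 hr, and 8.67% and 8.29% at 25 hr. LHCB4.2 (-0.98 ± 0.12, adjusted p = 1.1e-07) and LHCB2.3 (-0.97 ± 0.12, adjusted p = 2.1e-07) were lower at 3.5 hr, and LHCB7 was higher (0.73 ± 0.08, adjusted p = 5.4e-08). For LHCB1.4 the value at 3.5 hr could be read as 1.47 or, at the next power of 10, as -1.85, so its direction is not settled and 1 of the 3 higher genes is uncertain. LHCB1.4 is also 1 of the 9 lower genes at 25 hr, where its value of -1.31 likewise rests on taking the smaller change.

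Of 62 other genes of electron transport, its assembly and its regulation, 9 were higher and 6 lower at 3.5 hr, beside 11.5% and 10.1% of all loci. At 25 hr 11 were higher and 2 lower, beside 8.29% and 8.67%. The medians of the 62 genes were 0.03 at 3.5 hr and 0.04 at 25 hr. Only CURT1D, a thylakoid curvature protein, was called among them, higher at 3.5 hr by 0.61 ± 0.08 (adjusted p = 4.6e-07).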

How the data were processed

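The values that the authors deposited are intensity values from Affymetrix AraGene arrays, background-corrected, quantile-normalized and summarized per locus by RMA, on a linear scale. They were present only as digits without decimal separators (up to 10 digits), so each is known up to a power of 10. The planned fit assumed usable values, so a step was added: within a group each array took the power of 10 nearest to the other arrays, after which LL groups were laid nearest to Col-0 LL at 1 hr and HL groups nearest to their own LL group. A change beyond 3.16-fold cannot be recovered, levels cannot be compared between genes, and no filter on dim loci or pseudocount could be applied. The genome build was not used, and sequences were not printed.

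Log2 values of 27826 loci on 33 arrays entered a limma 3.58.1 model (R 4.3.3) with 1 mean per group, 22 residual and 8.37 prior degrees of freedom, and Benjamini-Hochberg adjustment within each contrast. The median locus had a residual SD of 0.111 (log2). For the 7 pairs of copies, the within-array differences were added as rows. The number of arrays limits the precision. Arrays lay 0.0822 to 0.129 (root mean square, log2) from their group means. Tables were made in Python 3.11.15 with pandas 2.3.3. The placing and fit were tested on simulated data whose changes were all below 3.16-fold, so that test does not cover larger changes.

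The genes and the comparison lists were chosen with earlier results of these data known. Values by array are given for called genes and for at least 1 gene per role, with exceptions stated. Alternatives were a replicate block, median centring, robust empirical Bayes, a test against 1.4-fold, Benjamini-Yekutieli adjustment, no fold limit, placing by the overall centre, fits of the compared groups alone, and leaving out arrays.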

Additional observations from a re-analysis of the deposited data

Results flagged for a closer look

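Differences in light response between time-points of Col-0 were flagged because the test of the difference itself passed in limma. The response at 3.5 hr was lower than that at 1 hr by -0.56 for PSAD2 (adjusted p = 0.036) and by -0.42 for PETE1 (adjusted p = 0.028). PSAD2 lost this call without 8 of the 12 arrays, namely HL replicate 2 or 3 or any LL replicate at 1 hr, or HL replicate 3 or LL replicate 1 or 2 at 3.5 hr, where the difference ran from -0.65 to -0.39 over all 12. PETE1 lost it without 7 of 12, namely replicate 2 or 3 of HL or LL at 1 hr, or HL replicate 2 or 3 or LL replicate 2 at 3.5 hr, with a range of -0.47 to -0.35.

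Between copies, the response of PETE1 minus PETE2 was lower at 3.5 than at 1 hr, by -0.57 (adjusted p = 0.0059), and that of PSBO1 minus PSBO2 differed between 25 and 3.5 hr by -0.70 (adjusted p = 0.0035). Both passed without each of their 12 arrays in turn. For the PETE pair from 1 to 3.5 hr, the difference within LL passed (0.40, adjusted p = 0.0025) and that within HL did not (-0.17, adjusted p = 0.23). Groups of 3 arrays were not screened for outlying samples.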

How the results depend on the processing

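The alternatives covered 47 passed results: all for single genes, and those for pairs in the light responses and their differences between times. None of the 47 changed its direction under an alternative. Passed differences between copies across accessions, or across times within the same light, were not among the 47. How these depended on the alternatives was not examined. The median response of the 30 genes in Ts-1, 0.01, had the other sign without Ts-1 LL replicate 2 (-0.04), Ts-1 HL replicate 1 (-0.01) or replicate 2 throughout (-0.06). Of the 47 results, 46 kept their call with the replicate number as a block, 46 with robust empirical Bayes, 46 with placing by the overall centre, 41 with median centring, 36 in fits of the compared groups alone, 16 with Benjamini-Yekutieli adjustment and 0 in the test against a 1.4-fold change. PSAD2 lost its call for 3.5 minus 1 hr in the fit of the compared groups alone, and PSBY in Ts-1 HL and PSAH1 in HL from 1 to 25 hr lost theirs both there and with median centring. The replicate numbers were not treated as pairing the samples. Deviations of same-numbered arrays correlated between -0.10 and 0.25, and 7 of 15 correlations were above 0.1. They were not compared with those of differently numbered arrays, so whether the numbers pair samples was not tested. With the replicate block, 9 genes were lower at 3.5 hr and 8 at 25 hr, and the call of PSBX in Ga-0 HL was lost.

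With no fold limit, 9 genes were called at 3.5 hr, 7 at 25 hr, 2 in the response between time-points, 5 between accessions and 8 between time-points within a light. The test against 1.4-fold left 0 in each of these counts, 0 genes lower at 3.5 or 25 hr and 0 pairs. With Benjamini-Yekutieli adjustment 2 genes were lower at 25 hr, 0 were called in the response between time-points and 4 pairs differed. Robust empirical Bayes gave 2 called in the response between time-points. Leaving out arrays, or 1 replicate number throughout, gave 2 to 3 genes called at 3.5 hr, 5 to 11 lower at 3.5 hr, 2 to 7 lower at 25 hr, 0 to 2 called in the response between time-points, 1 to 2 between accessions and 3 to 8 pairs. Genes lower at 3.5 hr numbered 6 without HL replicate 3 or LL replicate 1, and those lower at 25 hr numbered 3 without replicate 2 of HL or of LL. A filter on dim loci and a pseudocount were not run, because levels are not known.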
